A study of Sus scrofa with 32 samples.

Results

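The glucocorticoid receptor gene NR3C1 and 9 genes known to be regulated by the receptor or to act on its hormone were followed in the longissimus dorsi (loin) muscle of 32 pig fetuses, collected on gestation day 77. The 10 genes were NR3C1, FKBP5, TSC22D3, PER1, ZBTB16, KLF9, KLF15, SGK1, HSD11B1 and GLUL. They were found by gene symbol among the 30413 loci of the expression table, and each symbol had 1 row. Of the fetuses, 16 were pure Iberian and 16 were crossbred Iberian x Large White, with 8 females and 8 males in each genotype. Per the study's methods, all were carried by purebred Iberian sows inseminated with mixed semen of both breeds and kept on a restricted diet, and were chosen for high or low body weight. The weight class of each fetus is not in the labels used here and was not compared. The fetus names begin with 4 digits that take 7 values, read here as the sow. No label says so in words, and everything given by sow rests on this reading.

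Glucocorticoids such as cortisol enter the cell and bind the receptor, which is held in the cytoplasm by heat shock chaperones. The bound receptor moves to the nucleus, attaches to DNA at inverted repeats called glucocorticoid response elements, and switches target genes on or off. In skeletal muscle the hormone is known for promoting protein breakdown and glutamine release, and in the fetus its rise before birth prepares organs for life outside the uterus. The roles named below are known mainly from human and mouse.

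In these fetuses none of the 10 genes passed the test for a difference between genotypes. Between sows 7 of them differed, against 23.8% of all loci tested. The 4 fetuses of sow 1340 had mean levels 15.7 times those of the other 28 fetuses for ZBTB16, 10.0 times for KLF15, 6.24 times for KLF9, 4.46 times for PER1, 2.69 times for TSC22D3, 2.48 times for GLUL and 2.32 times for FKBP5. NR3C1, SGK1 and HSD11B1 had ratios of 1.49, 1.29 and 1.18. Of the 4 littermates, the pure Iberian fetus 1340F7L had the lowest level of 8 of the 10 genes. The genes, and the gene lists below, were chosen with earlier results of these data known. The sow was singled out after the values were seen, and whatever else her fetuses shared cannot be told apart from her.

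The table gives FPKM, a level of expression scaled to the length of the transcript and to the mapped fragments of the library, so that it can be compared between genes. Read totals were not analysed here. Sequencing depth, estimated from the spacing of the lowest values, ranged from 0.700 to 1.43 times the average library, and from 0.839 to 1.31 in the 4 fetuses of sow 1340. The muscle identity of the samples showed in ACTA1, the skeletal actin gene, which ranged from 3241 to 13391 FPKM, and in DES, which ranged from 1028 to 4776 FPKM. These are whole-tissue values, so more cells of a type and more RNA per cell cannot be told apart.

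Letters that resemble the element bound by the receptor were searched within 5000 bases on either side of the annotated start of each gene in RefSeq on Sscrofa11.1, on both strands. The full repeat of AGAACA, 3 bases of any kind and TGTTCT was present at 20 of 19532 genes (0.102%) and at 0 of the 10. A relaxed repeat, GNACA, 3 bases of any kind and TGTNC (N is any base), of which the full repeat is one form, was present at 2409 genes (12.3%) and at 3 of the 10. The 3 matches are given on the strand of their gene, with the repeat in capitals, because they are the only ones found at these genes under the relaxed letters.
FKBP5: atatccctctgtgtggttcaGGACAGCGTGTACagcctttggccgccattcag
PER1: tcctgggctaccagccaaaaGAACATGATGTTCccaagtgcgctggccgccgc
GLUL: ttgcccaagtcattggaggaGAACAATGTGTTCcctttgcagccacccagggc
All 3 lie in introns, on the minus strand. The FKBP5 stretch is chr7:31549345-31549397, 1333 bases downstream of the annotated start. The PER1 stretch is chr12:53374391-53374443 at 2306 bases, and the GLUL stretch is chr9:123760728-123760780 at 1821 bases. A match of letters is not a shown binding site, and genes with many annotated starts were searched around 1 of them.

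The receptor and the enzyme that supplies its hormone did not pass the test by sow or by genotype. NR3C1 encodes the receptor itself. It had 33.1 ± 7.30 FPKM in Iberian fetuses (SD, n = 16; lowest 23.6, median 31.2, highest 50.8) and 37.6 ± 8.17 FPKM in crossbred fetuses (SD, n = 16; lowest 26.4, median 35.7, highest 57.5). The ranges of the genotypes overlapped over most of their length. In sow 1340 it had 38.8 FPKM in 1340F5L, 50.8 in 1340F7L, 57.5 in 1340F8L and 51.0 in 1340F9L, against 23.6 to 43.6 FPKM in the other 28 fetuses. These were the 3 highest of the 32 values and 1 value inside the range of the others, and here the Iberian littermate was not the lowest. HSD11B1 encodes the enzyme that regenerates active cortisol from cortisone inside the cell. It had 8.74 ± 1.25 FPKM in Iberian fetuses (SD, n = 16; lowest 6.49, median 8.76, highest 10.9) and 7.76 ± 1.97 FPKM in crossbred fetuses (SD, n = 16; lowest 5.09, median 7.02, highest 11.6). Its values in sow 1340, from 8.77 to 9.92 FPKM, lay inside the range of the other fetuses, whose highest value was in 1401F1L.

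FKBP5 encodes a co-chaperone that lowers the affinity of the receptor for its hormone, and it is itself a receptor target. It had 3.87 ± 0.679 FPKM in Iberian fetuses (SD, n = 16; lowest 2.90, median 3.73, highest 4.85) and 5.13 ± 3.89 FPKM in crossbred fetuses (SD, n = 16; lowest 2.54, median 4.01, highest 19.1). The larger SD of the crossbred group came with 3 fetuses of sow 1340, which had 7.33 FPKM (1340F5L), 5.83 FPKM (1340F8L) and 19.1 FPKM (1340F9L). Their Iberian littermate 1340F7L had 3.59 FPKM, and 17 of the 28 other fetuses had as much or more. The other fetuses ranged from 2.54 to 5.04 FPKM, so the 3 crossbred littermates lay above all of them and the Iberian one among them.

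TSC22D3 encodes GILZ, a leucine zipper protein through which glucocorticoids dampen inflammation. It had 148 FPKM in 1340F5L, 39.4 in 1340F7L, 78.4 in 1340F8L and 157 in 1340F9L, and from 27.6 to 54.97 FPKM in the other fetuses. The pattern was that of FKBP5: the 3 crossbred littermates above every other fetus, and 1340F7L among them. PER1, a repressor in the circadian clock, is switched on directly by glucocorticoids. It had 64.8 FPKM in 1340F5L, 16.5 in 1340F7L, 37.0 in 1340F8L and 63.5 in 1340F9L, and from 7.92 to 18.4 FPKM in the others. Only 1 fetus of another sow, 1412F2L, exceeded 1340F7L. The next of the others had 11.8 FPKM.

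ZBTB16, KLF9 and KLF15 encode zinc finger transcription factors. ZBTB16 (PLZF) had 22.9 FPKM in 1340F5L, 5.06 in 1340F7L, 17.5 in 1340F8L and 33.3 in 1340F9L, and from 0.643 to 2.48 FPKM in the others. All 4 littermates lay above all 28 others, and 1340F7L had 3.76 times the mean of the other Iberian fetuses. KLF9 had 8.90 FPKM in 1340F5L, 4.43 in 1340F7L, 13.1 in 1340F8L and 20.9 in 1340F9L, and from 1.22 to 2.71 FPKM in the others. KLF15, which acts on amino acid and lipid metabolism in muscle, had 20.5 FPKM in 1340F5L, 6.09 in 1340F7L, 24.0 in 1340F8L and 36.6 in 1340F9L, and from 1.40 to 3.40 FPKM in the others. For both Krüppel-like factors the 4 littermates again stood above all others, in the same order, with 1340F9L highest and 1340F7L lowest.

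GLUL encodes glutamine synthetase, which makes the glutamine that muscle releases under glucocorticoids. It had the highest level of the 10 genes, with 285 FPKM in 1340F5L, 133 in 1340F7L, 181 in 1340F8L and 259 in 1340F9L, and from 46.1 to 132 FPKM in the others. The groups did not overlap, but 1340F7L lay close to the highest other fetus, 1412F2L. SGK1 encodes a kinase of ion transport and cell survival that glucocorticoids induce in many tissues. It had 20.1 FPKM in 1340F5L, 27.0 in 1340F7L, 31.8 in 1340F8L and 29.2 in 1340F9L, and from 13.8 to 36.7 FPKM in the others. The groups overlapped, and the highest value of all was in the Iberian fetus 1417F3L.

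**Figure D1:**
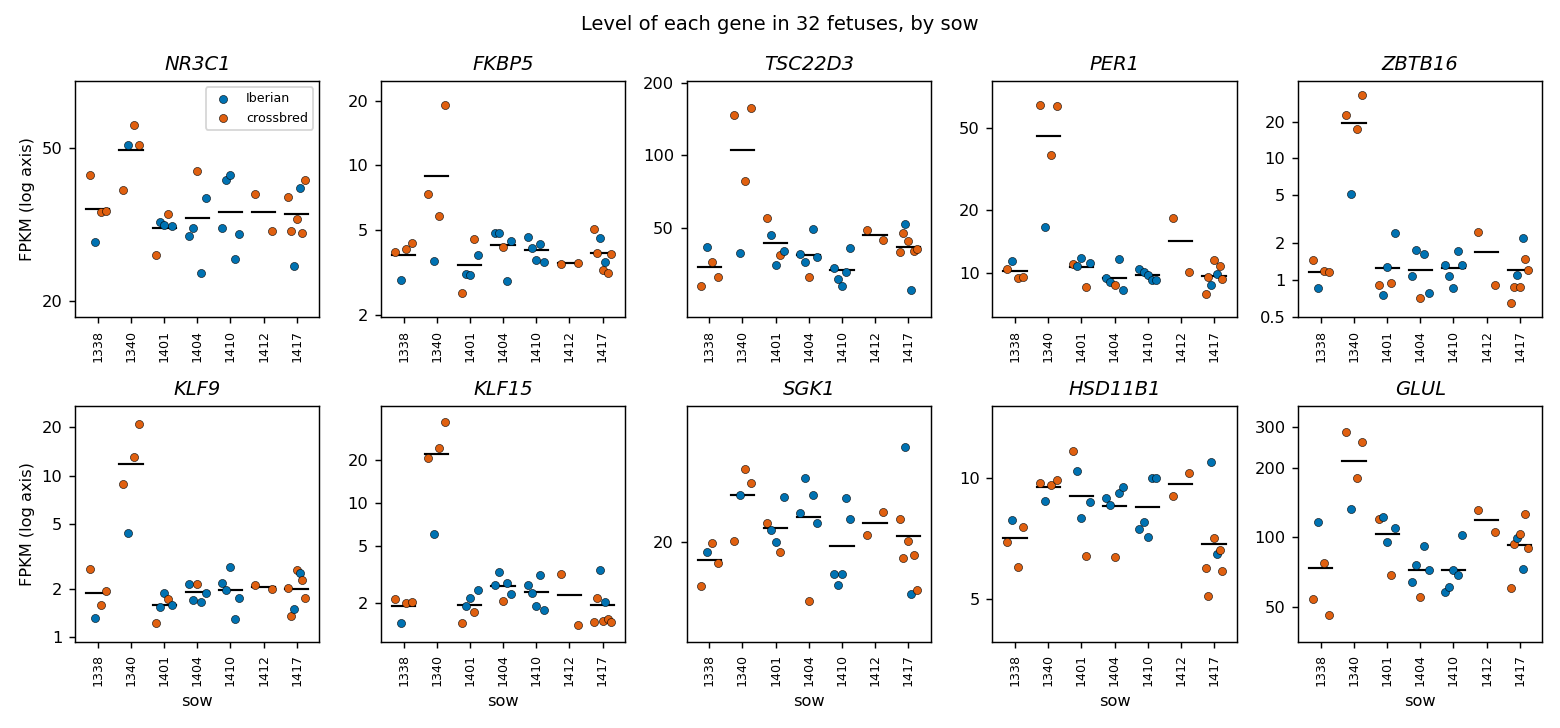
FPKM of each of the 10 genes (log axis) in each fetus, by sow, with each point a fetus coloured by genotype and each bar the mean of the sow. For ZBTB16, KLF9, KLF15 and GLUL the 4 fetuses of sow 1340 lie above the other 28, while for HSD11B1 and SGK1 they lie within their range.

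The lowest of the 4 littermates lay above all 28 other fetuses for 4 of the 10 genes, ZBTB16, KLF9, KLF15 and GLUL, and the same was so for 447 of the 16750 loci tested (2.67%). In sow means, sow 1340 was highest for 9 of the 10 genes, a description for which no share over all loci was taken. The exception was HSD11B1, where sow 1412 had 9.66 FPKM and sow 1340 had 9.50 FPKM. Among the other 6 sows the means were close: 1.16 to 1.69 FPKM for ZBTB16, against 19.7 FPKM in sow 1340, and 1.92 to 2.64 FPKM for KLF15, against 21.8 FPKM. The corresponding means were 1.59 to 2.06 FPKM for KLF9, against 11.8 FPKM, and 9.39 to 14.2 FPKM for PER1, against 45.5 FPKM.

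**Figure D2:**
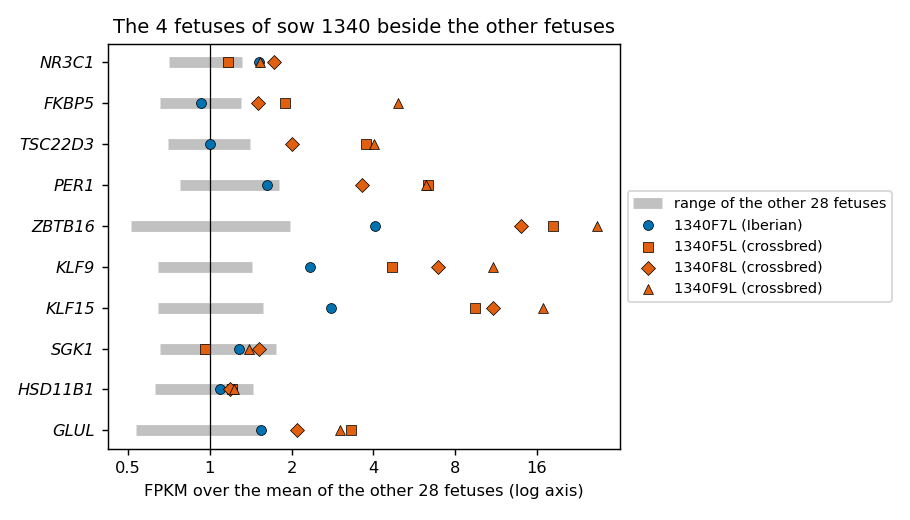
FPKM of each gene in the 4 fetuses of sow 1340, divided by the mean of the other 28 fetuses (log axis), with the grey bar the range of those 28. The 3 crossbred littermates lie to the right of 1340F7L for all but NR3C1 and SGK1, and 1340F9L reaches the largest ratio, for ZBTB16.

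The difference between sows was tested over all fetuses with a moderated F test (limma on log2(FPKM + 0.5), with genotype in the model) for the 16750 loci with a mean above 0.5 FPKM in at least 1 genotype. With the Benjamini-Hochberg adjusted p limited to 0.05, 7 of the 10 genes differed between sows, against 23.8% of all loci. The adjusted p from limma was 6.81e-07 for KLF15, 1.03e-06 for ZBTB16, 2.01e-06 for KLF9, 6.88e-06 for PER1, 0.000612 for GLUL, 0.0044 for TSC22D3 and 0.0471 for FKBP5. It was 0.0735 for HSD11B1, 0.0981 for NR3C1 and 0.217 for SGK1. Without the 4 fetuses of sow 1340, 0 of the 10 genes and 0.0962% of loci passed. Of the 10, 1 then had an unadjusted p below 0.05, GLUL, against 3123 of the 16638 loci tested. The call for FKBP5 was marginal. Its adjusted p was 0.184 without 1340F9L, and 0.0542 to 0.0728 with no filter, with median-of-ratios rescaling, or without sow 1338, 1401, 1410 or 1417. Without 1340F9L the other 6 genes stayed at adjusted p from 1.54e-05 to 0.0451, against 13.6% of loci that passed in that fit.

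The genotype comparison asked whether these genes differed between the genotypes over all fetuses, with no sow in the main fit. Sow 1410 carried only Iberian and sow 1412 only crossbred fetuses, so the comparison was in part one between sows. Under the same limit on the adjusted p, with a minimum fold of 1.3, limma called 0 of the 10 genes and 1.36% of all loci (142 higher and 85 lower in crossbred fetuses, or 134 and 125 after median-of-ratios rescaling). Of the 10, 1 had an unadjusted p below 0.05, against 17.9% of all loci, and it was TSC22D3. Its log2 fold change, crossbred over Iberian on the log2(FPKM + 0.5) scale, was 0.38 (SE 0.18, adjusted p = 0.269). KLF9 had 0.47 (SE 0.27, adjusted p = 0.365), ZBTB16 0.47 (SE 0.41, adjusted p = 0.583) and PER1 0.42 (SE 0.24, adjusted p = 0.373). The values of the last 3 were the largest of the 10, and each had a standard error above 0.2. KLF15 had 0.28 (SE 0.36), GLUL 0.23 (SE 0.21), FKBP5 0.21 (SE 0.16) and NR3C1 0.18 (SE 0.10). SGK1 had -0.14 (SE 0.12) and HSD11B1 -0.19 (SE 0.10), and the adjusted p of these 6 from limma lay between 0.313 and 0.722. The median over the 10 genes was 0.25, against 0.03 over all loci, and 8 of the 10 were above 0, against 56.2% of all loci.

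Sow 1340 carried 3 of the 16 crossbred and 1 of the 16 Iberian fetuses, and those 3 held a varying share of the crossbred sum of each gene. They held 83.2% of the crossbred sum of ZBTB16, 76.9% of that of KLF15, 62.8% of that of KLF9 and 55.0% of that of PER1. The share was 42.1% for TSC22D3, 39.3% for FKBP5 and 39.0% for GLUL, and it was 24.7% for SGK1, 24.5% for NR3C1 and 23.6% for HSD11B1. Without sow 1340 the median log2 fold change of the 10 genes was -0.02, against 0.02 over all loci, and 4 of the 10 were above 0. KLF15 turned to -0.31 (SE 0.11, limma adjusted p = 0.136) and ZBTB16 to -0.17 (SE 0.14, adjusted p = 0.575). In the 28 remaining fetuses KLF15 had 2.44 ± 0.576 FPKM in the Iberian group (SD, n = 15) and 1.87 ± 0.496 FPKM in the crossbred group (SD, n = 13), a difference of the opposite sign to that over all 32. FKBP5 went to -0.02 and GLUL to -0.01, PER1 to 0.03 and TSC22D3 to 0.09. Limma again called 0 of the 10, against 0.757% of loci. KLF15 and HSD11B1 had unadjusted p below 0.05, against 17.8% of all loci. When the sow entered the fit as a block, 0 of the 10 and 0.287% of loci were called, and GLUL had a log2 fold change of -0.13.

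**Figure D3:**
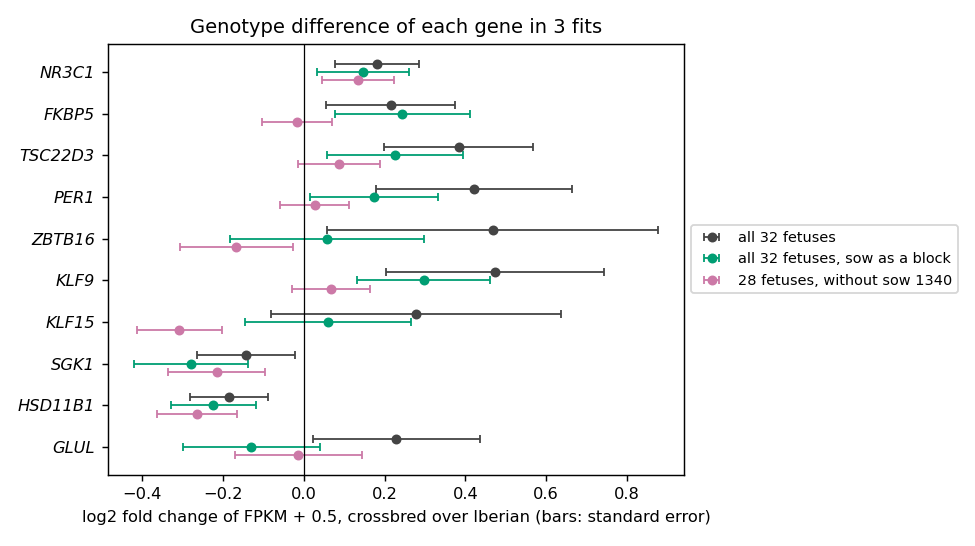
Log2 fold change of each gene between genotypes (crossbred over Iberian, on log2(FPKM + 0.5)), with its standard error, over all 32 fetuses, with the sow as a block, and without sow 1340. None was called in any of the 3 fits, and KLF15 moved from 0.28 to -0.31 when sow 1340 was left out.

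Of the 7 sows, 5 carried both genotypes, which allows littermates to be set side by side, without a test within a sow. In sow 1340 the mean of the 3 crossbred fetuses exceeded the Iberian fetus by 2.12 log2 units for ZBTB16, 2.02 for KLF15, 1.66 for PER1, 1.62 for TSC22D3, 1.504 for KLF9, 1.27 for FKBP5 and 0.84 for GLUL. As there was 1 Iberian fetus, its genotype and its own state cannot be told apart. In sows 1401, 1404 and 1417 the same difference was -0.36, -0.34 and -0.56 for KLF15 and -0.39, -0.55 and -0.49 for ZBTB16, while in sow 1338 it was 0.38 for each. The crossbred mean was higher for 8 of the 10 genes in sow 1340, for 5 in sows 1338 and 1417, and for 2 in sows 1401 and 1404. Only SGK1 had the same sign in all 5 sows, lower in crossbred fetuses with differences of -0.02 to -0.88 log2 units, and it was not called in any fit. HSD11B1 was lower in crossbred fetuses in 4 of the 5.

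Between the sexes limma called 0 of the 10 genes in Iberian fetuses, against 0.116% of loci, and 0 in crossbred fetuses, against 0.125%. None of the 10 had an unadjusted p below 0.05 in either over all fetuses, against 370 of 16414 loci in Iberian and 14.9% of loci in crossbred fetuses. FKBP5 had 6.34 ± 5.18 FPKM in crossbred females and 3.91 ± 1.46 FPKM in crossbred males (SD, n = 8 each), a log2 difference of 0.48 (SE 0.27, limma adjusted p = 0.382), and 1340F9L was among the females. Without sow 1340, limma again called 0 of the 10 in crossbred fetuses, against 0.126% of loci, but 4 of the 10 had an unadjusted p below 0.05, against 9.44% of all loci, each with an adjusted p of 0.461. FKBP5 was then 0.30 log2 units higher in females (SE 0.10), and PER1 had a difference, female minus male, of -0.34 (SE 0.13), HSD11B1 of -0.35 (SE 0.15) and GLUL of -0.56 (SE 0.22). GLUL had 69.1 ± 19.1 FPKM in the remaining crossbred females (SD, n = 6) and 103 ± 28.0 FPKM in the males (SD, n = 7), and the ranges overlapped. When the sow entered as a block, 0 of the 10 and 0.196% of loci were called, and GLUL had -0.53 (SE 0.14, limma adjusted p = 0.0608). No locus was called for a sex difference that differed between genotypes (0% of 17345 loci, 850 with unadjusted p below 0.05). Of the 10 genes, 1 had an unadjusted p below 0.05 in that test. It was HSD11B1, with 9.25 ± 1.28 FPKM in Iberian females, 8.23 ± 1.05 in Iberian males, 7.10 ± 1.78 in crossbred females and 8.42 ± 2.03 in crossbred males (SD, n = 8 each; limma adjusted p = 0.829).

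The genes around the receptor were taken from further lists. Of 15 genes of the receptor complex, hormone metabolism and cofactors, 3 differed between sows (limma), a share near the 23.8% of all loci. Those 3 had a lower mean in sow 1340, although 11 of the 15 had a higher mean log2 level and the median difference of the 15 was 0.23 log2 units. HSPA8, a chaperone of the receptor's folding cycle, had 211 FPKM in 1340F5L, 241 in 1340F7L, 131 in 1340F8L and 124 in 1340F9L, against 221 to 566 FPKM in the others (adjusted p = 0.000359). PPP5C, a phosphatase bound to the receptor complex, had 6.53 to 11.14 FPKM in sow 1340 and 8.35 to 17.0 FPKM in the others (adjusted p = 0.00615). HSP90AA1, the chaperone that holds the receptor ready for hormone, had 183 to 269 FPKM, inside the range of the others, 99.5 to 369 FPKM (adjusted p = 0.00341). The genotype comparison called 0 of the 15, and the smallest adjusted p were 0.105 for the coactivator NCOA1 and 0.212 for HSD11B2, which inactivates cortisol.

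Of 30 further known targets of the receptor 27 were tested, and 20 differed between sows, against 23.8% of all loci. All 20 had a higher mean in sow 1340. The median difference of the 27 between sow 1340 and the other fetuses was 1.21 log2 units, against 0.01 over all loci, and 1.27 for the 10 genes above. Both sets of genes were chosen with earlier results of these data known, so these medians are a description. PDK4, which turns muscle from glucose to fat as fuel, had 32.7 FPKM in 1340F5L, 13.4 in 1340F7L, 59.6 in 1340F8L and 75.6 in 1340F9L, against 0.841 to 3.23 FPKM in the others (adjusted p = 3.56e-09). CEBPD, a transcription factor, had 67.5, 11.4, 44.2 and 72.6 FPKM in the same order, against 2.01 to 7.23 FPKM (adjusted p = 1.7e-07). IRS2, an adaptor of the insulin receptor, had 17.0, 7.77, 20.0 and 26.9 FPKM, against 0.886 to 3.45 FPKM (adjusted p = 2.71e-07). In each of the 3 genes the Iberian littermate was the lowest of the 4 and still above all others. The genotype comparison called 0 of the 27, and CRISPLD2, ANXA1 and RGS2 came nearest, with limma adjusted p of 0.0883, 0.0949 and 0.147. Of the 27, 24 had a higher mean log2 level in sow 1340. ANXA1, an anti-inflammatory target, was among the 3 that did not, with 20.9 to 36.9 FPKM in sow 1340 and 24.5 to 108 FPKM in the others. It did not pass the test between sows (adjusted p = 0.0857).

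Genes of muscle protein breakdown that lie downstream of the receptor gave 9 of 12 that differed between sows, against 23.8% of all loci. All 9 were higher in sow 1340, with a median difference of 1.27 log2 units over the 12. FBXO32 (atrogin-1), which tags muscle proteins for breakdown, had 62.5 FPKM in 1340F5L, 27.6 in 1340F7L, 123 in 1340F8L and 145 in 1340F9L, against 1.56 to 7.93 FPKM in the others (limma adjusted p = 9.7e-08). FOXO3, a transcription factor that drives such ligases, had 34.3, 19.0, 37.5 and 45.9 FPKM, against 7.22 to 12.6 FPKM (adjusted p = 1.49e-07). BNIP3, a mitophagy receptor, had 497, 161, 414 and 688 FPKM, against 57.1 to 141 FPKM (adjusted p = 2.15e-06). The order of the 4 littermates differed between these genes, but 1340F7L was lowest and 1340F9L highest in each. The genotype comparison called 0 of the 12, with adjusted p of 0.209 for TRIM63, 0.211 for FOXO4 and 0.25 for FOXO3.

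Immediate early genes, which respond within minutes to many stimuli and not to glucocorticoids alone, were read as a contrast. Of the 10 that passed the filter on low values also without sow 1340, 7 differed between sows, against 23.8% of all loci. Of these, 5 had a higher and 2 a lower mean in sow 1340. FOS had 65.6 FPKM in 1340F5L, 21.4 in 1340F7L, 24.9 in 1340F8L and 43.1 in 1340F9L, against 4.83 to 20.3 FPKM (limma adjusted p = 4.2e-06). NR4A3, an orphan nuclear receptor, had 8.91, 0.299, 5.29 and 7.09 FPKM, against 0.0774 to 0.359 FPKM, so that the Iberian littermate lay inside the range of the others. It passed the filter only through sow 1340, and its values are a description. With NR4A3 included, the median difference of the 11 tested genes was 0.90 log2 units. JUNB had an adjusted p of 0.00013, with 1 of the other fetuses at or above 1340F7L. Between genotypes none was called, and IER2 and NR4A1 had adjusted p of 0.312 and 0.371.

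Of 12 circadian clock genes 5 differed between sows, against 23.8% of all loci. Of these, 4 were higher and 1 lower in sow 1340, with a median difference of 0.39 log2 units over the 12. PER3 was the lower one, with 1.78 to 2.12 FPKM against 2.00 to 3.97 FPKM (adjusted p = 0.000781 from limma), whereas its paralogue PER1 was 4.46 times higher. PER2 had 4.59 FPKM in 1340F5L, 2.49 in 1340F7L, 3.69 in 1340F8L and 6.56 in 1340F9L, against 2.36 to 3.86 FPKM (adjusted p = 0.014). CIART, a clock repressor, had 4.45 to 15.0 FPKM against 3.24 to 7.33 FPKM (adjusted p = 0.0314). Between genotypes 0 of the 12 were called, and TEF, CRY2 and NR1D2 had adjusted p of 0.278, 0.316 and 0.408. Without sow 1340, 0 of the 76 genes of these 5 lists that could then be tested passed the test between sows, against 0.0962% of all loci.

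**Figure D4:**
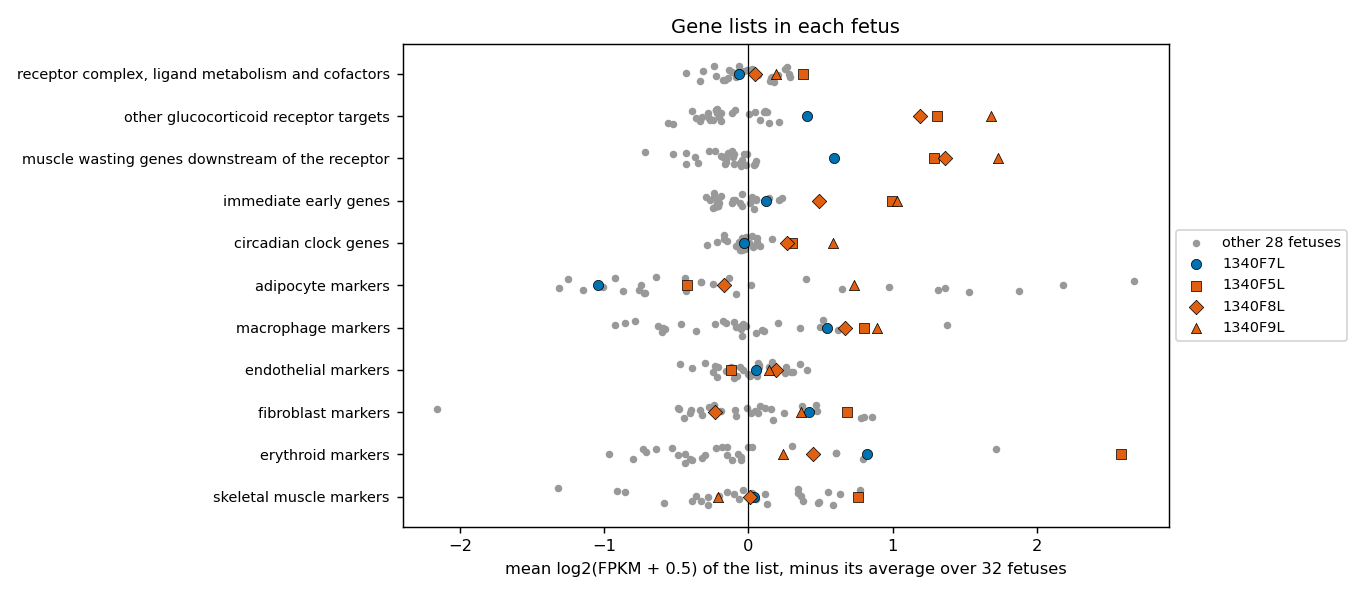
Mean log2(FPKM + 0.5) of each gene list in each fetus, minus its average over the 32 fetuses, with the 4 fetuses of sow 1340 as symbols and the other 28 as grey points. Sow 1340 lies above all others for the receptor targets and the muscle wasting genes, and within the range of the others for the adipocyte, endothelial, fibroblast and skeletal muscle markers.

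Markers of other cells moved in part with the same litter. The counts below stand beside 23.8% of all loci that passed the test between sows. Of 8 macrophage markers 4 (CD163, C1QA, C1QB and C1QC) differed between sows, all with a higher mean in sow 1340. Of the 8, 7 had a higher mean there, and the median difference was 0.82 log2 units. The mean of the list lay 0.55 to 0.89 log2 units above its average over all fetuses, and 2 of the 28 other fetuses were at or above the lowest of these. CD163 alone had 16.5 to 21.5 FPKM in sow 1340 and 2.65 to 10.1 FPKM in the others. The summed level over the 8, to which CD68, lower in sow 1340, contributed more than any other, was 248 to 335 FPKM there and 156 to 553 FPKM in the others. Of the 4 erythroid markers that passed the filter also without sow 1340, 2 differed (HBB and ALAS2), and the summed level of 5 was 434 to 3300.3 FPKM in sow 1340 and 119 to 2882 FPKM in the others. Of 7 endothelial markers 1 differed (VWF). Of 10 adipocyte, 8 fibroblast and 10 skeletal muscle markers none passed the test between sows. The summed adipocyte level was 52.9 to 152 FPKM in sow 1340 and 39.8 to 624 FPKM in the others. The median difference was -0.38 log2 units for adipocyte, -0.13 for endothelial, 0.29 for fibroblast and 0.23 for skeletal muscle markers. For the 5 erythroid markers it was 1.304 log2 units, against 1.27 for the 10 genes, and all 5 were higher in sow 1340. Among them SLC4A1 passed the filter only through sow 1340. The mean of the erythroid list lay 0.239 to 2.58 log2 units above its average in that litter. Of the 28 other fetuses, 5 were above the lowest of these. No macrophage, erythroid, endothelial, adipocyte or muscle marker was at 0 in any fetus. Within the litter the erythroid sum, PER1 and GLUL were highest in 1340F5L, NR3C1 and SGK1 in 1340F8L, and the other 6 of the 10 genes in 1340F9L. The part of these cells in the differences between sows was not tested.

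The loci most like FKBP5 were sought among the tested loci with a gene symbol, as a description over the 32 fetuses, of which littermates share a dam. The highest Pearson r on the log2(FPKM + 0.5) scale were 0.895 for a row that carries both GLYR1 and ROGDI, 0.889 for IL1RAP, 0.888 for PTGS2, 0.885 for RNF146 and 0.885 for RYBP. In the 28 fetuses of the other sows these were 0.460, 0.659, 0.501, 0.596 and 0.642. PTGS2, the inducible cyclooxygenase, passed the filter on low values only through sow 1340, which its place here follows from. It had 2.54 FPKM in 1340F5L, 0.216 in 1340F7L, 1.51 in 1340F8L and 6.16 in 1340F9L, and from 0.0194 to 0.398 FPKM in the others, again with the Iberian littermate among the others. Between FKBP5 and the other target genes the likeness was weaker or of the opposite sign without the 1 litter. Pearson r fell from 0.675 to -0.60 for PER1, from 0.659 to -0.39 for TSC22D3 and from 0.374 to -0.70 for GLUL without sow 1340. For KLF15 it went from 0.794 to 0.413, for KLF9 from 0.775 to 0.150 and for ZBTB16 from 0.728 to -0.05. In the fetuses of the other 6 sows, FKBP5 tended to be lower where PER1, TSC22D3 and GLUL were higher.

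The assembled loci of 3 of the 10 genes are shared by several rows of the table. The locus of NR3C1 (chr2:144822077-145303378) is shared by 12 rows, that of HSD11B1 (chr9:133229658-133380526) by 5 and that of GLUL (chr9:123748778-123910814) by 4. The locus of FKBP5 (chr7:31441759-31585344) also covers ARMC12. The libraries were not stranded, so reads from overlapping genes could be counted with these 4. The other 6 loci hold no other protein-coding gene: TSC22D3 (chrX:88141330-88234608), PER1 (chr12:53341328-53376779), ZBTB16 (chr9:41639518-41837632), KLF9 (chr1:223720412-223748621), KLF15 (chr7:53877811-53890568) and SGK1 (chr1:29625956-29753666).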

How the data were processed

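RNA from the loin muscle of 32 fetuses was sequenced by the authors as unstranded 2 x 76 base pairs. Per the submitters' notes, reads were trimmed with Trim Galore, aligned to Sscrofa11.1 with TopHat2 2.1.0 and Bowtie2 2.2.7.0, and assembled and quantified with Cufflinks 2.2.1 and Cuffdiff; the deposited values are FPKM. Here log2(FPKM + 0.5) was fitted with limma 3.58.1 in R 4.3.3 (trend) for loci with a mean above 0.5 FPKM in at least 1 group compared, and p-values were Benjamini-Hochberg adjusted over all of them. Calls needed an adjusted p of at most 0.05 and, except for the sow and interaction tests, a fold of at least 1.3. Tested on simulated data, the genotype comparison recovered 86% of 50 loci changed 1.5-fold and 98% of 50 changed 2-fold, the sow test 44% and 84%. The simulated noise was independent between fetuses, with the spread left after genotype and sow were fitted. The sow change was set in sow 1417, with 7 fetuses. Spread between sows and a change in a litter of 4, as in sow 1340, were not simulated, so recovery there is not known. Of 7779 rows named by an Ensembl number, 994 received a symbol from the reference table. In 98.39% of 496 pairs of libraries, the observed depth ratio lay within 0.1 log2 units of the ratio of the 2 estimated depths. In 1340F5L the values carry more digits than in most libraries. Named were the 10 genes, the 3 list genes with the smallest p by sow and by genotype, and the 5 loci most like FKBP5; 1 gene that this rule names is not reported here. The members and lists were chosen with earlier results of these data known. The authors' test columns were not used. Fetuses are the replicates; littermates share a dam, so the p-values between genotypes and sexes measure the spread between fetuses only. Tables and plots were made in Python 3.11.15 (pandas 2.3.3, numpy 2.4.6, matplotlib 3.10.9), and the random effect of the sow used statmod 1.5.0.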

Additional observations from a re-analysis of the deposited data

Results flagged for a closer look

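Within the 4 groups of genotype and sex, each of 8 fetuses, the highest or lowest fetus was set against Dixon's limit for each of the 10 genes. Of these 40 sets 13 held a fetus beyond the limit, in each case a fetus of sow 1340. The sets share fetuses and the genes were chosen with earlier results known, so the count is not set against chance. No share over all loci was taken, so whether the count is particular to these genes is not known. The crossbred females include both 1340F8L and 1340F9L, which can hide each other. ZBTB16 had 17.5 and 33.3 FPKM in these, against 0.643 to 1.22 in the other crossbred females, and neither passed the limit. Among crossbred males 1340F5L stood apart for 7 genes: FKBP5 (7.33 FPKM, others 2.54 to 4.06), TSC22D3 (148 FPKM, others 28.7 to 54.97), PER1 (64.8 FPKM, others 9.42 to 18.4), ZBTB16 (22.9 FPKM, others 0.872 to 2.48), KLF9 (8.90 FPKM, others 1.22 to 2.66), KLF15 (20.5 FPKM, others 1.40 to 3.20) and GLUL (285 FPKM, others 54.3 to 132). Among Iberian females 1340F7L stood apart for PER1 (16.5 FPKM, others 8.69 to 10.7), ZBTB16 (5.06 FPKM, others 0.751 to 1.78), KLF9 (4.43 FPKM, others 1.295 to 2.18) and KLF15 (6.09 FPKM, others 1.80 to 3.40). Among crossbred females 1340F9L stood apart for FKBP5 (19.1 FPKM, others 3.87 to 5.83) and TSC22D3 (157 FPKM, others 31.1 to 78.4).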

How the results depend on the processing

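None of the 10 genes was called between genotypes under any alternative. Leaving out 1 sow at a time gave 38 to 528 called loci between genotypes, against 227, and 16 to 4187 between sows, against 3981; leaving out 1 library gave 132 to 339 between genotypes, more than 1.5 times fewer without 1401F8L, 1404F1L, 1404F2L, 1410F5L or 1417F3L. With the sow as a block 48 loci were called between genotypes and 33, against 21, between the sexes of crossbred fetuses. Added after seeing the data, leaving out the 3 fetuses highest in adipocyte markers left 53 called between genotypes, and leaving out 1340F9L left 2275 between sows. The log2 fold change by genotype reversed in FKBP5 (leaving out 1 sow, -0.017 to 0.33), ZBTB16 (-0.17 to 0.86), KLF15 (-0.31 to 0.64) and GLUL (-0.014 to 0.44, and -0.13 with the sow as a block). Between sows, FKBP5 lost its call with no filter, with median-of-ratios rescaling, and without sow 1338, 1340, 1401, 1410 or 1417 (adjusted p 0.0542 to 0.639), and HSD11B1 gained one without sow 1401 (0.0406). The causes were not tested. Precision is limited by 4 fetuses in sow 1340, 1 of them Iberian, and by FPKM values without counts.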
